A study of Homo sapiens with 15 samples.

Results

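Glucosamine (GlcN) and alloxan were set against each other in IL-1β-stimulated MH7A cells, a human synovial cell line immortalised with the SV40 large T antigen. The comparison sets 6 of the 15 arrays of the series against each other, chosen by their titles: 3 from cells given IL-1β and GlcN, and 3 from cells given IL-1β and alloxan. The 3 experiments, numbered 1 to 3 in the titles, each held 1 array of every condition, so each GlcN array was paired with the alloxan array of its own experiment. Cells of each of these groups were stimulated with IL-1β at a concentration of 15 pg/ml and taken after 13 h. GlcN, at 5 mM, preceded the IL-1β by 2.5 h. Alloxan was added at 5 mM in a step of 30 min and then kept at 2 mM over the 2.5 h that preceded the IL-1β. The labels give this alloxan schedule for the cells that received both agents, and it was taken to hold for alloxan alone. The doses and times of the agents therefore differ, and each value below compares these treatments as given, in a single cell line. The other 9 arrays were from resting cells, from cells given IL-1β alone and from cells given IL-1β with both agents. They entered the fit, which took the experiment effect and the spread from all 15 arrays. Each value is the log2 signal of a gene on the Human Gene 1.0 ST array, for which 1 unit is a 2-fold difference.

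GlcN is an amino sugar that enters the hexosamine pathway and becomes UDP-GlcNAc, the sugar donor that O-GlcNAc transferase (OGT) attaches to serines and threonines of nuclear and cytoplasmic proteins. Alloxan is used as an inhibitor of OGT. It is also known as a source of reactive oxygen species and as a toxin of pancreatic beta cells. Synovial fibroblasts line the joint, and under IL-1β they secrete cytokines, chemokines and matrix-degrading enzymes.

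The labelled cell type was checked against marker genes. Of 13 fibroblast markers, 8 lay above the array median in mean level, taken over all 33297 transcript clusters, with or without a gene symbol. VIM and COL1A1 led at percentiles 98.8 and 91.3, whereas FAP, PDPN and VCAM1 lay at percentiles 27.6, 30.2 and 24.5. None of 9 T and B cell markers, 1 of 8 endothelial and 2 of 10 macrophage markers lay above the median, with 4 of 8 epithelial markers. The summed epithelial level differed between GlcN and alloxan by -0.184, -0.329 and -0.358 log2 units in experiments 1, 2 and 3, and its part in the results was not tested. That sum follows its brightest members, KRT18 (-0.43, which passed) and KRT8 (-0.22, which did not), whereas CDH1 passed as higher with GlcN, at 0.54. The fibroblast markers PDGFRB and THY1 passed in opposite directions, at 0.65 higher and -0.48. In bulk RNA, fewer cells of a type and less RNA per cell cannot be told apart. Array medians were 6.18 to 6.21 in experiment 1, 7.14 to 7.19 in experiment 2 and 7.49 to 7.54 in experiment 3, so levels were compared only within an experiment. IL-1β alone changed no gene past an adjusted p of 0.05 against resting cells in limma (491 higher and 486 lower at an unadjusted p under 0.05), with IL6 higher by 1.24 log2 units.

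The agents were told apart by 2613 of 16872 genes tested with an adjusted p under 0.05, the threshold that "passed" denotes from here on. GlcN-treated cells had the higher level for 1292 genes (7.66% of those tested) and the lower level for 1321 (7.83%). Past 1.5-fold, 291 genes were higher (1.72%) and 148 lower (0.877%) with GlcN, and past 2-fold 68 and 27. The test was limma with the experiment as a block, and the median standard error of a difference was 0.06 log2 units. Without the experiment term 5 genes passed as higher and none as lower (43 and 14 at an unadjusted p under 0.05). An unpaired test with no moderation across genes left none after adjustment (24 and 33 before it). When the fit held only the GlcN and alloxan arrays, with the block, 373 and 297 passed. Leaving out experiment 1, 2 or 3 left 577, 853 and 618 higher and 644, 635 and 435 lower, and without the GlcN array of experiment 3 there were 851 lower. In the fit without the experiment term at most 1 member of each gene group below passed.

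The genes with the largest excess under GlcN were those that GlcN itself raised above IL-1β alone. They were INHBE, BEST1, SPX, SLC6A9, ALDH1L2, SLC7A11, IL20RB, SYT1, ASNS, GABRG1, HERPUD1, WARS1, DDIT3, CMKLR2 and PCK2, with differences of 3.46 down to 1.55 log2 units among them. Of these 15, SYT1 (a synaptic vesicle calcium sensor) combined a rise with GlcN of 0.61 and a change with alloxan of -1.31, each of which passed, and ALDH1L2 combined 1.98 with -0.70. The genes with the largest excess under alloxan were EGR1, RNVU1-19, DIO2, IER3, DUSP6, ESM1, SGK1, RNVU1-15, TNFAIP3, SPRY4, MIR21, CXCL8, CDKN1A, SNORD14E and DUSP1. These 15 fell into 2 kinds: alloxan raised EGR1, DUSP6, SPRY4, CXCL8, CDKN1A and DUSP1 above IL-1β alone, whereas the others were below IL-1β alone with GlcN and did not pass as higher with alloxan.

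**Figure D1:**
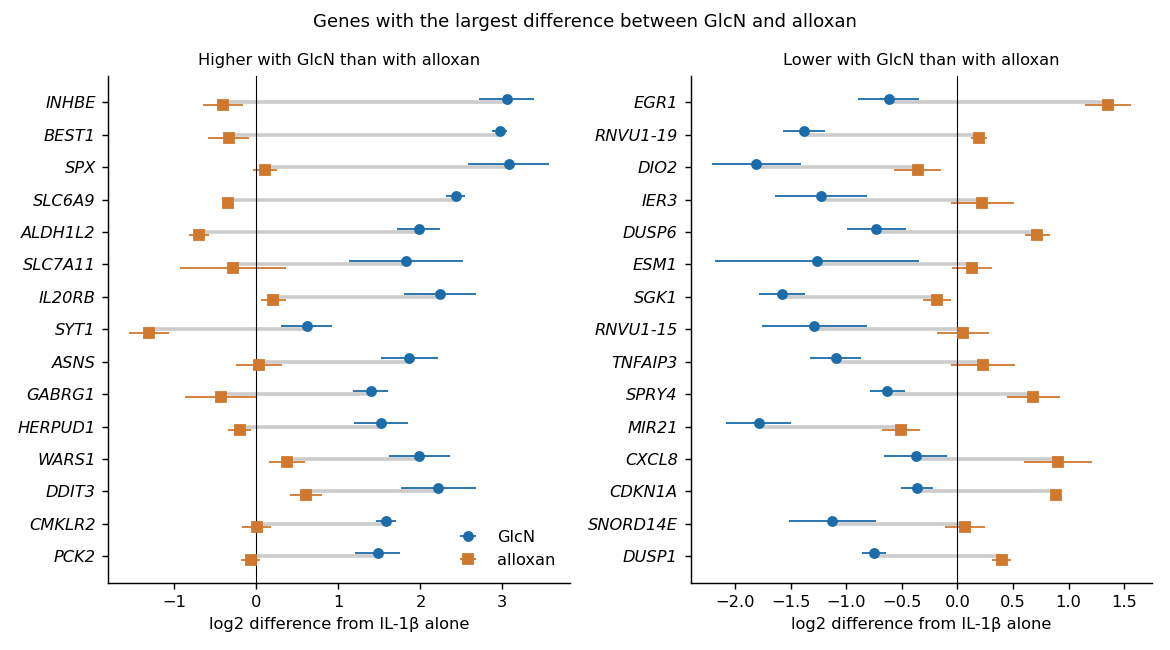
Mean log2 difference from IL-1β alone with GlcN (blue circles) and with alloxan (orange squares) for the 15 genes per direction that differed most between the agents, with bars of ±1 SD over 3 experiments. INHBE stands at 3.05 with GlcN and -0.41 with alloxan, and EGR1 at -0.62 and 1.36.

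Genes of the integrated stress response stood higher with GlcN. In this response, kinases that sense amino acid shortage, misfolded protein in the endoplasmic reticulum (ER) or other stress phosphorylate eIF2α, and the transcription factor ATF4 then raises CHOP (DDIT3), amino acid transporters, amino acid enzymes and tRNA synthetases. Of 33 ATF4 and CHOP targets tested, 21 were higher and 4 lower with GlcN than with alloxan, with a median difference of 0.68 log2 units against -0.01 over all genes. The 4 lower ones were NDRG1, GDF15, ATF3 and ATF5, at -0.72, -0.66, -0.44 and -0.52. Against IL-1β alone, GlcN raised 24 of the 33 (5.29% of all genes passed as higher in that comparison) and alloxan raised 11 (6.13%), with medians of 0.96 and 0.06. In cells given both agents 25 were raised (9.06%).

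INHBE, which encodes an inhibin beta subunit made under ER stress, stood at 8.49, 10.02 and 10.20 with GlcN in experiments 1, 2 and 3. It stood at 4.95, 6.66 and 6.72 with alloxan and at 5.25, 7.35 and 6.95 with IL-1β alone. In every experiment GlcN was highest and alloxan lowest. The difference between the agents was 3.46 ± 0.09 log2 units (SD, n = 3; adjusted p = 4.86e-07). DDIT3, the pro-apoptotic factor CHOP, stood at 10.34, 10.84 and 10.97 with GlcN and at 8.27, 9.42 and 9.62 with alloxan. Its levels with IL-1β alone were 7.62, 9.03 and 8.84, so that alloxan also raised it, by 0.60 (adjusted p = 0.0147). The difference between the agents was 1.61 ± 0.40 (adjusted p = 2.30e-05). TRIB3, a pseudokinase that CHOP and ATF4 induce, was higher with GlcN by 1.40 ± 0.28, and WIPI1, an autophagy protein, by 1.41 ± 0.17.

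Enzymes that make serine, asparagine and one-carbon units followed the same direction: 12 of 19 were higher and 3 lower with GlcN (TYMS, ALDH18A1 and MAT2A, at -0.40, -0.25 and -0.20), with a median of 0.61. ASNS, asparagine synthetase, stood at 9.85, 10.21 and 10.60 with GlcN and at 7.59, 8.70 and 8.89 with alloxan, and with IL-1β alone at 7.79, 8.76 and 8.54. GlcN was highest in every experiment, and the difference between the agents was 1.83 ± 0.39 (adjusted p = 1.99e-05). PHGDH and PSAT1, which begin the serine pathway, were higher by 1.21 ± 0.26 and 1.34 ± 0.31. ALDH1L2, the mitochondrial 10-formyltetrahydrofolate dehydrogenase, differed by 2.68 ± 0.15 (adjusted p = 2.36e-08), and MTHFD1L by 0.61 ± 0.06. The fit of only the compared groups left 7 of the 19 higher and 1 lower.

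Of 21 amino acid transporters 10 were higher and none lower with GlcN (median 0.24). The glycine transporter SLC6A9 stood at 9.44, 10.62 and 10.90 with GlcN, at 6.48, 7.88 and 8.28 with alloxan and at 6.89, 8.21 and 8.57 with IL-1β alone. Alloxan thus lay below IL-1β alone in each experiment (-0.35, adjusted p = 0.0206), and the agents differed by 2.78 ± 0.18 (adjusted p = 2.36e-08). SLC7A11, the cystine carrier, was higher by 2.11 ± 0.22, and SLC7A5, SLC1A4 and SLC38A1 by 1.16, 1.11 and 0.81. Cytosolic aminoacyl-tRNA synthetases, which charge tRNAs, were higher in 12 of 19 and lower in none, with a median of 0.49. WARS1, AARS1, YARS1, IARS1 and SARS1 differed by 1.62, 1.27, 0.99, 0.89 and 0.65. When experiment 1 was left out, 11 synthetases passed as higher and 1 as lower.

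The promoter of ASNS holds the amino acid response element through which ATF4 acts, so the 250 bases before the start site were read from RefSeq (GRCh38.p14, 13149 of the 16872 genes tested had a window, the first listed for each gene) and searched for TGATGNAA on both strands. It occurred in 4 of 28 windows of ATF4 and CHOP targets (14.3%) and in 4 of 15 of the amino acid enzymes (26.7%, ASNS being in both lists), against 1.86% of all windows. The former list is of ATF4 and CHOP targets by definition, so these shares are a description and no test. ASNS (chr7:97872409-97872658, minus strand) and CHAC1 (chr15:40953221-40953470, plus strand) are shown with the match in capitals. CHAC1, a glutathione-degrading enzyme named here for its window, was higher with GlcN by 0.99 ± 0.16 (adjusted p = 0.000617).
ASNS: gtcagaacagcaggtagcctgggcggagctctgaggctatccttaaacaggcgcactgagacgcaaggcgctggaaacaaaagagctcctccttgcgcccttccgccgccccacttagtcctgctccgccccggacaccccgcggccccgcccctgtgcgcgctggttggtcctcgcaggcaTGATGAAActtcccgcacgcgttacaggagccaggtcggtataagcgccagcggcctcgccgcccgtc
CHAC1: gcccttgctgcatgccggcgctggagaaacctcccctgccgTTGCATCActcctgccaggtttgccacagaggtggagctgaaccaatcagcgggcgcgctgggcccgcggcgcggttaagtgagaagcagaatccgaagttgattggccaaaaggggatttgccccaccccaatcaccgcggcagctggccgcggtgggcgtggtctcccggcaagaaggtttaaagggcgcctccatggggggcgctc

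ER chaperones and other genes of the unfolded protein response were higher with GlcN in 29 of 35 cases and lower in none, with a median of 0.54. This response, run by IRE1, PERK and ATF6, raises the folding and degradation machinery of the ER. GlcN raised 26 of the 35 above IL-1β alone and lowered 1, whereas alloxan raised 2 and lowered 11 (6.62% and 7.21% of all genes passed as lower with GlcN and with alloxan). In cells given both agents 24 were raised and none was lowered. The direction held in each experiment, with medians of 0.67, 0.53 and 0.51.

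HERPUD1, which works in the degradation of ER proteins, stood at 11.52, 11.95 and 12.33 with GlcN and at 9.43, 10.30 and 10.89 with alloxan. With IL-1β alone it stood at 9.62, 10.65 and 10.97, above alloxan in each experiment, although that difference of -0.21 did not pass (adjusted p = 0.301). The agents differed by 1.72 ± 0.33 (adjusted p = 3.89e-06). PDIA4, a disulphide isomerase, differed by 1.40 ± 0.07 (adjusted p = 3.20e-08), with 1.07 from GlcN and -0.33 from alloxan, both of which passed. MANF and SEL1L did likewise, at 0.81 and -0.40 and at 0.87 and -0.27, whereas DNAJC3 and HYOU1 passed with GlcN (1.27 and 1.07) and not with alloxan (-0.07 and -0.16).

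The ER stress response element, CCAAT followed after 9 bases by CCACG, lay in 7 of 32 windows of this group (21.9%) and in 0.122% of all windows. The group was listed for this response, so the share is a description and no test. HSPA5 (BiP, chr9:125241344-125241593, minus strand) is shown because it is the chaperone for which the element is best known, and HERPUD1 (chr16:56931892-56932141, plus strand) because it held a TGATGNAA match. Capitals mark the CCAAT and CCACG ends in HSPA5 and the match, read on the other strand, in HERPUD1. TGATGNAA was in 1 of the 32 windows of this group (3.12%), against 1.86% of all windows. HSPA5, named here for its window, stood at 13.18, 13.68 and 13.84 with GlcN and at 11.66, 12.48 and 12.70 with alloxan, a difference of 1.28 ± 0.20 (adjusted p = 4.60e-06). The alloxan difference from IL-1β alone was -0.40 (adjusted p = 0.0118).
HSPA5: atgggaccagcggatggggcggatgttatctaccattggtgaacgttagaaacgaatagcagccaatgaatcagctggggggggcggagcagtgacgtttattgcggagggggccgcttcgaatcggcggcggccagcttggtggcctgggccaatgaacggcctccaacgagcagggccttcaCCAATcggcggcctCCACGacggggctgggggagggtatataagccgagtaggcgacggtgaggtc
HERPUD1: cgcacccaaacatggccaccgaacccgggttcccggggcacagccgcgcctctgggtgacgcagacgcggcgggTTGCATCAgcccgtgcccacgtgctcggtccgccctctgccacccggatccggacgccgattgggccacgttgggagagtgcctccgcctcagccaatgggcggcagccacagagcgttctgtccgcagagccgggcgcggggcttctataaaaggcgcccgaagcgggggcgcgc

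Immediate early genes and the feedback inhibitors of the ERK pathway stood lower with GlcN than with alloxan. These genes are switched on within minutes of growth factor or stress signalling, and the DUSP phosphatases and SPRY proteins they include restrain ERK. Of 43 tested, 29 were lower and 1 was higher (KLF2, at 0.20), with a median of -0.54. GlcN lowered 19 of the 43 against IL-1β alone and raised 1, while alloxan raised 17 and lowered none. Cells given both agents had 6 raised and 14 lowered (8.47% of all genes passed as lower). With only the compared groups in the fit, 15 of the 43 passed as lower and none as higher.

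EGR1, a zinc-finger transcription factor, stood at 8.95, 10.45 and 10.45 with GlcN in experiments 1, 2 and 3. With alloxan it stood at 11.21, 12.31 and 12.26, and with IL-1β alone at 9.80, 10.77 and 11.13. In every experiment IL-1β alone lay between the agents. The agents differed by -1.98 ± 0.25 (adjusted p = 9.48e-07), made up of -0.62 with GlcN and 1.36 with alloxan, each of which passed. DUSP6, the cytoplasmic ERK phosphatase, showed the same order at 6.80, 7.89 and 8.17 with GlcN, 7.32, 8.53 and 9.20 with IL-1β alone and 7.97, 9.38 and 9.86 with alloxan (difference -1.45 ± 0.26, adjusted p = 5.11e-06). DUSP1 and SPRY4 also passed in opposite directions, at -0.75 and 0.40 and at -0.63 and 0.68. DUSP5 differed by -1.14 ± 0.13, with -0.86 from GlcN and 0.28 from alloxan. KLF10 differed by -0.98 ± 0.10, with -0.94 from GlcN and 0.03, which did not pass, from alloxan.

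The EGR1 window (chr5:138465229-138465478, plus strand) held 2 CArG boxes, the sites of serum response factor, given here in capitals. A CArG box was in 2 of 32 windows of this group (6.25%, EGR1 and SRF) and in 1.13% of all windows.
EGR1: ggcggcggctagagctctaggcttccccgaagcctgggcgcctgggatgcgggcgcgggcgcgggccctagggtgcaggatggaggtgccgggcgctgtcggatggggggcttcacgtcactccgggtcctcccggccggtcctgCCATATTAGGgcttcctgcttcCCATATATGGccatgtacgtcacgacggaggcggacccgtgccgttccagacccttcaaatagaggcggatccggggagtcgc

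Targets of NF-kB, the transcription factor that IL-1β activates, were lower with GlcN than with alloxan in 14 of 30 cases and higher in none, with a median of -0.29. GlcN lowered 9 and raised none, and alloxan raised 3 and lowered 1. TNFAIP3 (A20), the deubiquitinase that limits NF-kB signalling, differed by -1.33 ± 0.12 (adjusted p = 0.000295), with -1.09 from GlcN and 0.23, which did not pass, from alloxan. IER3, a survival factor, differed by -1.45 ± 0.16, and NFKBIZ and NFKBIE by -0.56 and -0.50. Cytokines and chemokines were lower in 9 of 29 and higher in 1 (TGFB2, 0.68). Without experiment 1, 2 or 3, 7, 12 and 6 of the NF-kB targets and 3, 4 and 4 of the cytokines passed as lower.

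CXCL8, the neutrophil chemokine IL-8, stood at 6.15, 7.05 and 7.22 with GlcN, at 6.85, 7.27 and 7.43 with IL-1β alone and at 8.09, 8.08 and 8.08 with alloxan. It was lowest with GlcN and highest with alloxan in every experiment, with the widest gap in experiment 1 (-1.94, against -1.03 and -0.87). The agents differed by -1.28 ± 0.58 (adjusted p = 0.00218). The alloxan rise of 0.90 passed (adjusted p = 0.0186), and the GlcN change of -0.38 did not (adjusted p = 0.328). IL6 stood at 6.81, 7.28 and 7.96 with GlcN and at 7.75, 8.09 and 8.77 with alloxan, and with IL-1β alone at 8.03, 8.63 and 8.59. For this cytokine it was the GlcN change that passed (-1.07, adjusted p = 0.00518) and not the alloxan change (-0.21, adjusted p = 0.580), with a difference between the agents of -0.86 ± 0.07 (adjusted p = 0.0129). IL24 and IL11 repeated the pattern of IL6, at -0.91 and -0.89 with GlcN and at 0.10 and 0.25, neither of which passed, with alloxan. TNF differed by -0.35 ± 0.19 (adjusted p = 0.0314), although neither agent's change from IL-1β alone passed.

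The sequence GGAATTTCC, a form of the kappaB site, was in 6 of 21 windows of NF-kB targets and in 6 of 21 of the cytokines and chemokines (28.6% of each), against 0.365% of all windows. The former group was listed as NF-kB targets, so these shares too are a description and no test. The AP-1 site TGACTCA was in 3 of the 21 cytokine windows (14.3%) and in 2.94% of all. It was also in 3 of 28 windows of ATF4 and CHOP targets (10.7%) and in 0 of 32 of the immediate early group. The CXCL8 window (chr4:73740319-73740568, plus strand) held a kappaB and an AP-1 site, in capitals in the order AP-1, then kappaB.
CXCL8: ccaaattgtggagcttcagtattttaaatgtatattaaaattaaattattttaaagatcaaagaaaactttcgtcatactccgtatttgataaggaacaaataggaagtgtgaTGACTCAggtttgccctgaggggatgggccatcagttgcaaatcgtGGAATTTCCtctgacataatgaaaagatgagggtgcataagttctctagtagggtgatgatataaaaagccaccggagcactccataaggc

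Targets of p53 and genes of the DNA damage response were lower with GlcN than with alloxan in 13 of 24 cases and higher in none (median -0.27). Alloxan raised 13 of the 24 above IL-1β alone and lowered none, and GlcN raised 3 and lowered 4. The large T antigen by which MH7A cells were immortalised is known to bind p53. CDKN1A, the cell cycle inhibitor p21, stood at 7.85, 9.16 and 9.16 with GlcN and at 9.01, 10.33 and 10.59 with alloxan. With IL-1β alone it stood at 8.15, 9.42 and 9.69, between the agents in every experiment. The difference was -1.25 ± 0.15 (adjusted p = 1.37e-06), with -0.36 from GlcN and 0.88 from alloxan, both of which passed. TP53INP1, FAS and PHLDA3 rose with alloxan by 0.77, 0.59 and 0.51, and PLK3 rose with alloxan by 0.51 and fell with GlcN by 0.40 on the log2 scale. Without experiment 1, 2 or 3, 11, 7 and 7 of the 24 passed as lower, and with only the compared groups in the fit 6 did.

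RNA levels of glucose-handling genes differed too. Of 20 glucose transporters and targets of MondoA, a transcription factor that senses hexose phosphates, 8 were lower and none was higher with GlcN, with a median of -0.12. TXNIP, the MondoA target that restrains glucose uptake, stood at 10.03, 10.98 and 10.66 with GlcN, close to 9.93, 10.95 and 10.75 with IL-1β alone, and at 10.69, 11.63 and 11.58 with alloxan. Its difference between the agents was -0.74 ± 0.16 (adjusted p = 6.71e-05), of which GlcN contributed 0.01 and alloxan 0.76. HK2, hexokinase 2, was lower with GlcN (-0.49) and higher with alloxan (0.36), and the transporter SLC2A3 was higher with alloxan by 0.84. The lower genes numbered 5 of the 20 with only the compared groups in the fit. Of 34 hypoxia and glycolysis genes 21 were lower with GlcN and 1, VEGFA, was higher (0.57), with a median of -0.33. GlcN lowered 16 of these and raised 2, and alloxan raised 6 and lowered 1. BHLHE40, a hypoxia-inducible repressor, and the aldolase ALDOC differed by -1.11 ± 0.07 and -1.03 ± 0.15. With only the compared groups in the fit, 13 hypoxia genes passed as lower.

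**Figure D2:**
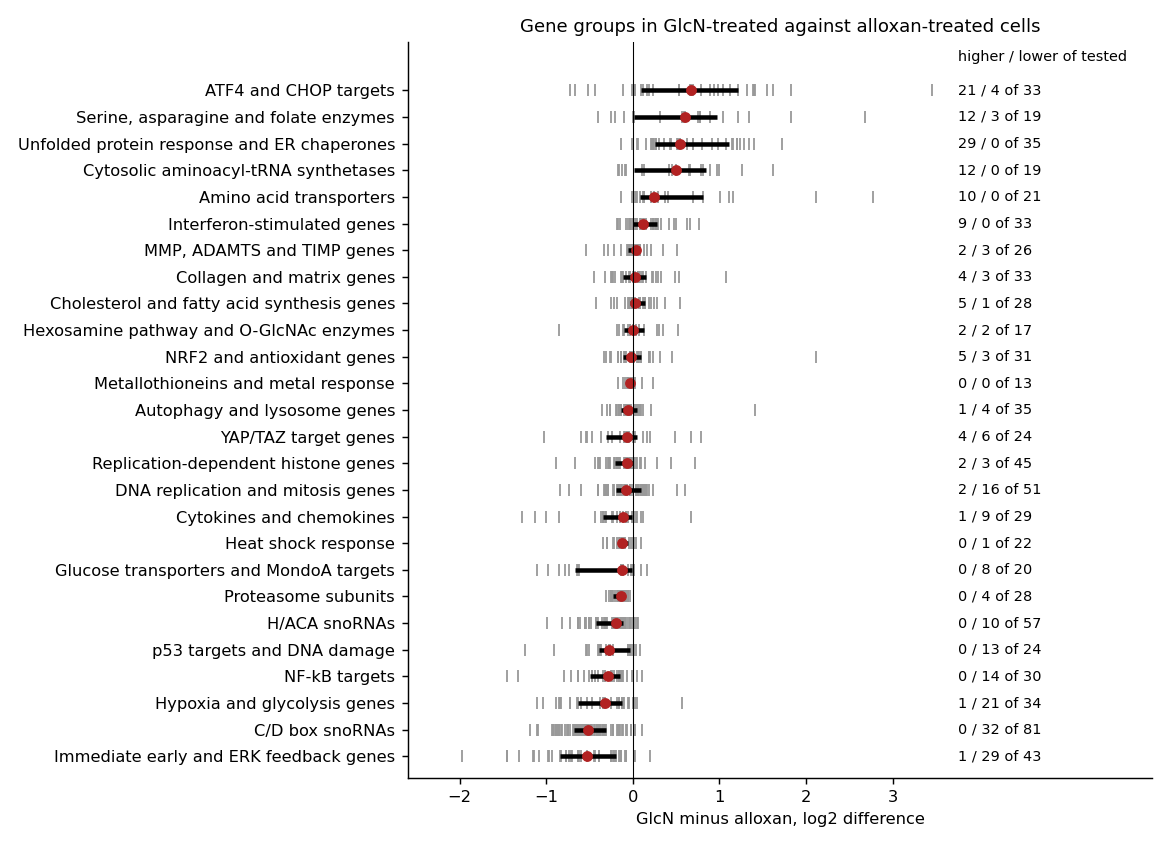
GlcN minus alloxan log2 difference of each tested member (grey ticks), the quartiles (black bars) and the median (red dots) of the 26 gene groups, with the number of members higher and lower with GlcN among those tested at the right. The stress response and amino acid groups lie at the top, with medians of 0.24 to 0.68, and the immediate early genes at the bottom at -0.54.

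C/D box snoRNAs, which guide ribose methylation of ribosomal RNA and mostly lie in introns of host genes, were lower with GlcN in 32 of 81 tested and higher in none, with a median of -0.51. These 81 of 115 named on the array reached the signal filter, which was set over all arrays regardless of group. The medians were -0.60, -0.56 and -0.28 in experiments 1, 2 and 3. GlcN lowered 31 of the 81 below IL-1β alone, and alloxan lowered none and raised 3. Whether the signal came from the snoRNA or from its host transcript was not tested. SNORD30 stood at 9.20, 9.13 and 9.57 with GlcN and at 10.32, 10.43 and 10.45 with alloxan (difference -1.10 ± 0.21, adjusted p = 0.000423), with IL-1β alone at 9.89, 10.43 and 10.59. H/ACA snoRNAs, which guide pseudouridylation, were lower in 10 of 57 and higher in none (median -0.19). The U1 snRNA variants RNVU1-19 and RNVU1-15 differed by -1.58 ± 0.14 and -1.34 ± 0.24. RNVU1 copies are near-identical, so their signals may be shared. With only the compared groups in the fit 14 C/D box snoRNAs passed, and without experiment 1, 2 or 3 there were 14, 14 and 11. For the H/ACA snoRNAs these counts were 4, and 3, 4 and 3.

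MIR21 was among the 15 genes with the largest excess under alloxan. Of 90 miRNA genes tested, it, MIR221 and MIRLET7A2 were lower with GlcN than with alloxan and none was higher, a share of 3.33%, below the 7.83% of all genes. The array probes report the precursor transcript of these loci, not the mature miRNA. MIR21 stood at 6.73, 7.24 and 7.45 with GlcN and at 8.23, 8.81 and 8.22 with alloxan, against 8.58, 9.28 and 8.91 with IL-1β alone. Alloxan lay below IL-1β and GlcN lower still in each experiment, at means of -0.51 and -1.79, and the agents differed by -1.28 ± 0.44 (adjusted p = 0.000155). MIR221 and MIRLET7A2 had the same order, with differences between the agents of -0.81 ± 0.41 and -0.58 ± 0.43. The mature sequences of the pair with the larger differences, at chr17:59841273-59841294, plus strand, and at chrX:45746180-45746202, minus strand (GRCh38.p14), are shown with the seed, bases 2 to 8, in capitals. The seeds differ.
hsa-miR-21-5p: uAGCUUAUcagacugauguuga
hsa-miR-221-3p: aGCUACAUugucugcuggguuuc

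Of 13 metallothioneins and metal response genes none passed. Of 22 heat shock genes BAG3, a chaperone partner of HSP70, passed, at -0.34, though not with only the compared groups in the fit or without experiment 3. NRF2 targets and antioxidant genes had 5 higher and 3 lower of 31: SLC7A11, ABHD4, ME1, TXNRD1 and UGDH at 2.11, 0.46, 0.19, 0.20 and 0.32, and NQO1, KEAP1 and SOD1 at -0.33, -0.25 and -0.26. These are 16.1% and 9.68% of the group, against 7.66% and 7.83% of all genes, and with only the compared groups in the fit 1 passed in each direction. NQO1, a quinone reductase, rose with GlcN by 0.59 and with alloxan by 0.92. HMOX1, heme oxygenase 1, differed by -0.31 ± 0.13, which did not pass (adjusted p = 0.106).

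The hexosamine pathway and O-GlcNAc enzymes had 2 of 17 higher with GlcN and 2 lower (11.8% each, against 7.66% and 7.83% of all genes). GFPT1, the rate-limiting amidotransferase of the pathway, was higher by 0.52 ± 0.14 (adjusted p = 0.000804), and OGT by 0.35 ± 0.21 (adjusted p = 0.0135). HK2 and GPI, which handle glucose before it enters the pathway, were lower, at -0.85 and -0.16. OGA, the hydrolase that removes O-GlcNAc, differed by 0.28 ± 0.15 (adjusted p = 0.0508). Neither GFPT1 (adjusted p = 0.0511) nor OGT (adjusted p = 0.145) passed with only the compared groups in the fit, and OGT did not pass without experiment 1 or without experiment 3.

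Interferon-stimulated genes had 9 of 33 higher with GlcN and none lower (median 0.12), among them DDX60, HERC6, IRF9, MX1 and XAF1 at 0.77, 0.48, 0.32, 0.29 and 0.28. With only the compared groups in the fit none of the 33 passed, and without experiment 1, 2 or 3, 4, 4 and 2 did. DDX60 was below IL-1β alone with alloxan (-0.84) and at -0.07, which did not pass, with GlcN. DNA replication and mitosis genes had 16 of 51 lower and 2 higher (CENPE and HMMR, 0.60 and 0.50), with CCNE2 and RRM2 at -0.60 and -0.73. Only 5 passed as lower, and none as higher, with only the compared groups in the fit, and without experiment 1, 2 or 3 there were 9, 6 and 10 lower. Proteasome subunits had 4 of 28 lower (PSMB3, PSMD3, PSMB5 and PSMB2, -0.32 to -0.24), a share of 14.3% against 7.83% of all genes. Replication-dependent histones had 2 of 45 higher (H4C8 and H2BC11, 0.72 and 0.44) and 3 lower (H2AC12, H4C1 and H2AC11, -0.67, -0.39 and -0.29). The histone shares, 4.44% and 6.67%, lie below those of all genes. Autophagy and lysosome genes had WIPI1 higher and 4 of 35 lower (SQSTM1, RRAGD, CTSB and ULK1, -0.27 to -0.14). Those are 2.86% and 11.4% of the group, against 7.66% and 7.83% of all genes. With only the compared groups in the fit no autophagy or lysosome gene, and no proteasome subunit, passed as lower.

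Among 24 YAP/TAZ targets 4 were higher and 6 lower with GlcN, with the coagulation initiator F3 at -1.03 and CCN2 at -0.54 at the lower end and RBMS3, TGFB2, MYOF and AJUBA at 0.79, 0.68, 0.48 and 0.19 at the other. These became 2 higher and 1 lower with only the compared groups in the fit. Cholesterol and fatty acid synthesis genes had 5 of 28 higher (ACACA, FADS1, LSS, ELOVL6 and STARD4, 0.54 to 0.22) and 1 lower (INSIG1, -0.42). These are 17.9% and 3.57% of the group, and the counts became 1 and 1 with only the compared groups in the fit. Alloxan lowered 11 of the 28 below IL-1β alone and GlcN lowered 7, where 7.21% and 6.62% of all genes passed as lower. Of 26 MMP, ADAMTS and TIMP genes, which cut or protect the matrix, ADAMTS5 and MMP16 were higher (0.34 and 0.21) and ADAMTS1, MMP15 and TIMP1 lower (-0.54, -0.33 and -0.22). These shares, 7.69% and 11.5%, are near the 7.66% and 7.83% of all genes, and with only the compared groups in the fit none passed as higher and 1 as lower. Without experiment 1 or 3 none passed in either direction.

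The length of a gene in the genome separated the agents. Spans from RefSeq (GRCh38.p14) were available for 16853 of the 16872 genes. Of 4668 genes of 10 kb or less, 2.89% were higher and 7.65% lower with GlcN than with alloxan, and of 410 genes over 400 kb 38.8% were higher and 0.976% lower. Against IL-1β alone, alloxan lowered 2.21% of the shortest genes and 41% of the longest, with intermediate shares in each bin between. GlcN lowered 5.27% and 8.54%. The median change of the genes over 400 kb was -0.13 log2 units with alloxan and 0.01 with GlcN. Of these 410 genes 159 were higher with GlcN than with alloxan, and 98, 122 and 105 without experiment 1, 2 or 3. Alloxan lowered 168, and 106, 126 and 98 without experiment 1, 2 or 3, with medians of -0.11, -0.16 and -0.13.

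The same was seen where alloxan was added to GlcN, a difference that holds none of the arrays of alloxan against IL-1β, although the spread was estimated over all arrays. Of the genes over 400 kb 32.7% were lower in cells given both agents than in cells given GlcN and 0.244% were higher, against 0.857% and 2.72% of the genes of 10 kb or less (3.52% and 3.27% of all genes). Of the 50 genes that alloxan lowered most, 36 spanned more than 200 kb (72%, median 428.7 kb), against 7.1% of all genes (median 24.9 kb). Of the 50 that GlcN lowered most, 4 did (median 12.7 kb). The difference between long and short genes depended on the signal level. In the upper tercile of mean level the median alloxan change was -0.28 for genes over 200 kb and 0.04 for those of 50 kb or less, and in the lowest tercile it was 0.00 and 0.01.

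Among the long genes, SYT1 (588.0 kb) stood at 9.59, 10.51 and 10.72 with GlcN and at 7.45, 8.83 and 8.77 with alloxan, with IL-1β alone at 8.63, 10.00 and 10.36. It was lowest with alloxan and highest with GlcN in every experiment (difference 1.92 ± 0.23, adjusted p = 1.63e-06). RBMS3 (729.3 kb), an RNA-binding protein gene, fell with both agents, at -0.44 with GlcN and -1.22 with alloxan. ACACA (321.8 kb) fell with alloxan, to -0.65, and stood at -0.10, which did not pass, with GlcN. TENM2, PCDH15 and NRXN3, cell adhesion genes chosen after their values were seen, fell with both agents, at -1.66, -1.41 and -1.19 with alloxan and at -0.46, -0.66 and -0.45 with GlcN.

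**Figure D3:**
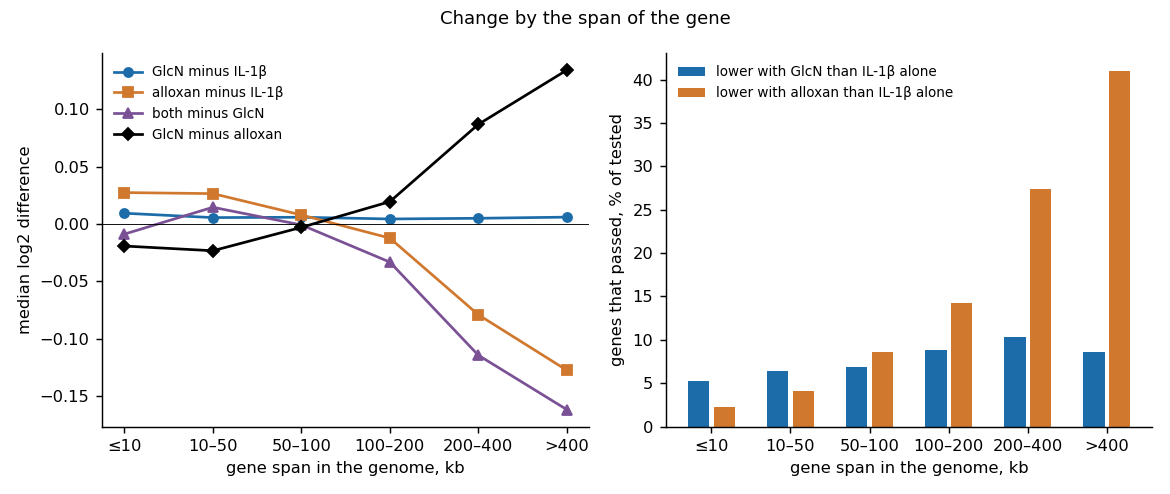
Left, the median log2 difference of genes grouped by their span in kb for GlcN and alloxan against IL-1β, for both agents against GlcN, and for GlcN against alloxan. Right, the share of tested genes lower with each agent than with IL-1β alone, which for alloxan goes from 2.21% in the shortest genes to 41% in the longest and for GlcN from 5.27% to 8.54%.

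Genes that the agents shared were defined as those that passed in the same direction with each agent against IL-1β alone and for which the 95% interval of the difference between the agents lay within 1.5-fold. There were 260 raised (1.54% of genes tested) and 323 lowered (1.91%). The changes from IL-1β share the 3 IL-1β arrays, so these counts are a description. The rule allows a difference of under 1.5-fold to pass: 12 of the 260 were also higher and 15 lower with GlcN than with alloxan, NQO1 among the latter, and 26 and 24 of the 323. With no array in common, by setting alloxan against the resting arrays and GlcN against IL-1β, 184 and 268 genes met the rule, of which 166 and 235 were among the 260 and 323. With GlcN against resting and alloxan against IL-1β there were 176 and 291, of which 148 and 228 were. When experiment 1 was left out the counts fell to 49 raised and 118 lowered, without experiment 2 to 64 and 94, and without experiment 3 to 100 and 87.

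The raised genes with the largest mean change were TUBGCP3, ZSCAN26, DDIT4, THG1L, SLC16A14, UQCC3, HDDC3 and IFT46. DDIT4 (REDD1), which restrains mTORC1, stood at 8.53, 8.99 and 9.15 with GlcN, at 8.004, 8.88 and 9.09 with alloxan and at 7.51, 7.92 and 7.91 with IL-1β alone. Each treated array lay above its IL-1β array, by 1.11 with GlcN and 0.88 with alloxan on average, and the interval of the difference between them ran from -0.01 to 0.47. THG1L, a tRNA histidine guanylyltransferase, rose by 0.88 and 1.06. UQCC3, an assembly factor of mitochondrial complex III, rose by 0.95 and 0.96.

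The lowered genes with the largest mean change were DCDC2, LGR5, CCBE1, POSTN, ADAM12, RGMB, SEMA3C and TMEFF2, several of which encode secreted or cell surface proteins. DCDC2, a microtubule-binding protein of cilia, stood at 7.20, 8.23 and 8.40 with GlcN, at 7.08, 8.29 and 8.54 with alloxan and at 8.64, 9.82 and 10.07 with IL-1β alone. The treated arrays of an experiment lay within 0.14 log2 units of each other and below their IL-1β array. The difference between the agents was -0.03, with an interval of -0.33 to 0.28. LGR5, a receptor for R-spondins, changed by -1.27 with GlcN and -1.25 with alloxan, and CCBE1, a factor in lymphatic growth, by -1.07 and -1.23. Larger changes with both agents lay outside the rule where the agents were more than 1.5-fold apart. CD180, chosen after its values were seen, was such a gene, at -2.91 with GlcN and -2.25 with alloxan.

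Of the 26 groups, the matrix genes had the most members lowered by both agents. Of 33 collagen and matrix genes 13 met the rule for lowered genes and none for raised ones, with 17 lowered by GlcN and 18 by alloxan against IL-1β alone (medians -0.24 and -0.29). POSTN, a matricellular protein, changed by -0.99 and -1.10, and COL1A1 and COL3A1, the main fibrillar collagen chains, by -0.46 and -0.68 and by -0.68 and -0.57. Matrix genes that told the agents apart were TNC, FBN1, FN1 and COL12A1, higher with GlcN by 1.08, 0.54, 0.49 and 0.33, and PLOD2, SPARC and LOXL1, lower at -0.32, -0.26 and -0.24. These are 12.1% and 9.09% of the group, near the 7.66% and 7.83% of all genes. COL12A1 also met the rule for genes lowered by both agents, at -0.23 and -0.56. Of the matrix genes 3 passed as higher and none as lower with only the compared groups in the fit. TNC rose with GlcN (0.36) and fell with alloxan (-0.72). ADAMTS6 and ADAMTS12 fell with both, at -0.64 and -0.66 and at -0.73 and -0.79.

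**Figure D4:**
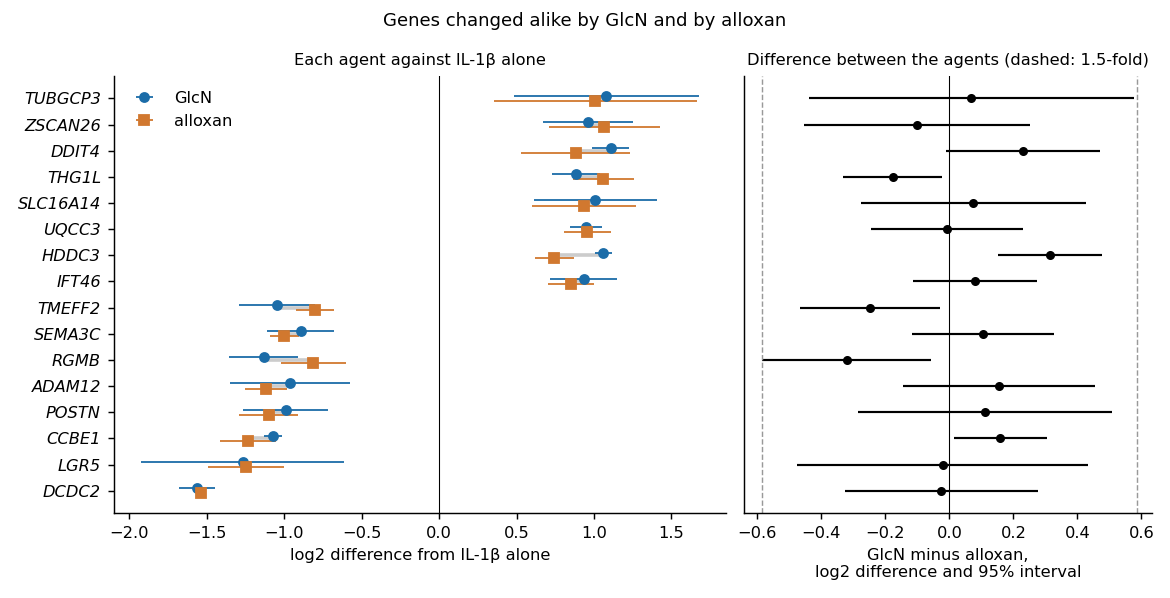
Left, mean log2 difference from IL-1β alone with GlcN (blue circles) and alloxan (orange squares), with bars of ±1 SD over 3 experiments, for the 8 raised and 8 lowered genes with the largest mean change. Right, the difference between the agents with its 95% interval, which lies inside the dashed 1.5-fold lines for each gene because the rule required it.

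The levels in cells given both agents are described for genes named above, most of which were chosen for their difference between the agents. INHBE stood at 1.53, HERPUD1 at 1.28 and SLC6A9 at 1.58 above IL-1β alone, against 3.05, 1.52 and 2.43 with GlcN. EGR1 rose by 0.75, against 1.36 with alloxan alone, whereas CXCL8 stood at -0.05, which did not pass. TXNIP rose by 0.73, against 0.76 with alloxan alone, and DCDC2 stood at -2.42, against -1.56 with GlcN and -1.54 with alloxan. These values share the IL-1β arrays with those of each agent alone.

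**Figure D5:**
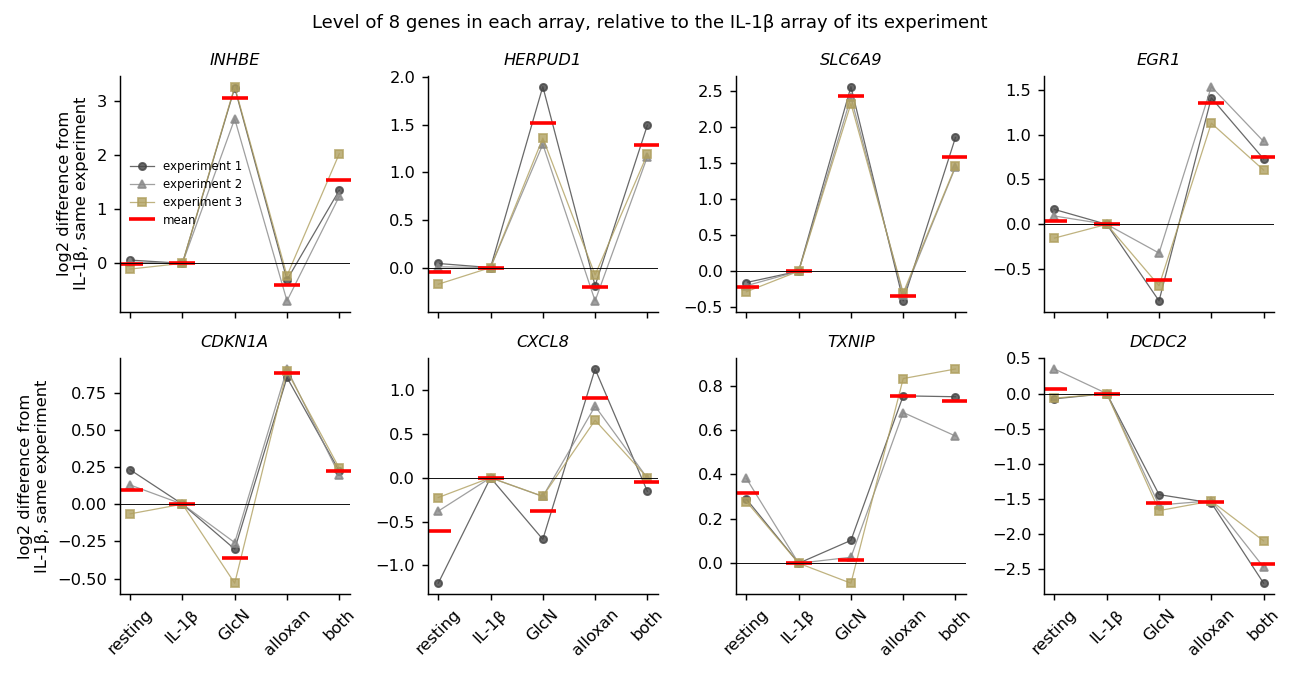
Log2 level of 8 genes in each array minus that of the IL-1β array of the same experiment, for resting cells and cells given IL-1β, GlcN, alloxan or both, with 1 symbol per experiment and red bars for the mean of 3. EGR1 and CDKN1A lie below 0 with GlcN and above it with alloxan in each experiment, and DCDC2 lies below 0 with both.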

How the data were processed

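MH7A cells from 3 experiments were measured on Human Gene 1.0 ST arrays, 1 array per condition and experiment. The deposited values are log2 signals made by the authors with RMA in Expression Console (versions not given in the sources used here), which corrects background, normalizes and summarises probes. Array medians still differed between experiments, so levels are comparable only within an experiment. Of 33297 transcript clusters, 19460 had 1 gene symbol, 1754 several and 12083 none; the brightest cluster stood for a gene. Genes above the array's 20th percentile on at least 3 arrays were kept, which left 16872. limma 3.58.1 in R 4.3.3 fitted condition plus experiment over all 15 arrays (8 residual degrees of freedom), with Benjamini-Hochberg adjustment over all genes. Experiments pair the arrays: deviations of same-experiment arrays correlated at 0.621 to 0.848 (30 pairs), others at -0.656 to -0.0678 (60). No arrays were duplicates (highest correlation 0.9958). The study calls them separate experiments; the number of arrays limits the precision. SD is over the 3 within-experiment differences. Named were the 15 genes per direction with the largest difference among those passing with 1 sign in 3 experiments, up to 5 members per list by p, 11 genes of the study's interest and 8 shared genes per direction; others were named for small counts or windows, or as stated. Members, lists and tests were chosen with earlier results of these data known. The fit was tested on simulated data. Alternatives: no block, fewer groups, other filters, cluster means, quantile or median scaling, trend moderation, the methods' t-test and leaving out arrays or experiments.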

Additional observations from a re-analysis of the deposited data

How the results depend on the processing

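Leaving out an array or an experiment, and rescaling the arrays, turned the direction of none of the 2613 genes that told the agents apart. Averaging the clusters of a gene turned 1 of the 1292 higher ones, and the other alternatives leave the mean difference as it is. All 2613 were selected for their difference in the same arrays, so a kept direction was nearly fixed beforehand. The counts of genes higher, lower, raised by both and lowered by both (1292, 1321, 260 and 323) stayed within 1.5 times under other filters on dim genes, cluster means, quantile or median scaling, trend moderation and a fit without the resting arrays. Without the replicate block that pairs the arrays of an experiment they were 5, 0, 0 and 0, and with the block but only the groups compared 373, 297, 121 and 175. That fit held the GlcN and alloxan arrays for the higher and lower counts. For the raised and lowered counts it also held the IL-1β arrays. The methods' t-test gave 0 in all 4 cases after adjustment. Leaving out 1 experiment gave 577 to 853 higher, 435 to 644 lower, 49 to 100 raised and 87 to 118 lowered. Leaving out 1 GlcN or alloxan array gave 885 to 1142 higher, 851 to 1416 lower, 127 to 228 raised and 193 to 319 lowered; without the GlcN array of experiment 3 the lower genes numbered 851. The fits with fewer arrays have fewer degrees of freedom; the cause of the other changes was not tested. Of the named genes none reversed, and 127 of the 132 that passed did not pass without the block. With 3 arrays a condition, small differences in dim genes could not be resolved.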
